A study of Mus musculus with 6 samples.

Results

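Autophagy and TFEB family genes are 44 genes that cover the transcription factors TFEB, TFE3 and MITF, the nutrient sensors that hold them in the cytoplasm, and the machinery that builds an autophagosome. Their rows were taken from the authors' unfiltered gene table by symbol. Of the 44 members, 41 had a row among the table's 13940 symbols, 37 could be tested, 4 were set aside and 3 (Atg101, Map1lc3a and Gabarap) had no row under that symbol. The libraries were made from ribosome-bound RNA of mouse spinal cord injury sites, with 3 libraries at 7 days and 3 libraries at 3 days after a contusion at T8. All 6 came from LysMCre:Rplfl/fl > CD45.1 chimeras of strain CD45.1, in which LysM-Cre, active in macrophages and other myeloid cells such as neutrophils, switches on an epitope tag on a ribosomal protein (the RiboTag method), so that RNA of cells without the tag should be left out. The samples hold neither uninjured cord nor RNA before precipitation, and every comparison is of 7 days with 3 days. The age of the mice and the number of animals behind a library are not in the labels, so p-values measure only the spread among these 6 libraries, which may be technical.

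Autophagy carries portions of cytoplasm, damaged organelles and lipid droplets to the lysosome in a double membrane. The ULK1 kinase complex and the Beclin 1 lipid kinase complex start the membrane, ATG9A and the ATG2 and WIPI proteins supply and mark it, and a conjugation cascade attaches LC3 and GABARAP proteins to its lipids, where cargo receptors bind. When nutrients are plentiful the kinase mTORC1 phosphorylates TFEB and its relatives and keeps them out of the nucleus; released, they bind E-box sequences and switch on lysosomal and autophagy genes. In macrophages this system deals with engulfed lipid and myelin debris. RNA levels do not measure how many autophagosomes form or are degraded.

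At 7 days 15 of the 37 tested members were higher than at 3 days, 2 were lower and 20 did not pass the test. The genes that rose included the cargo receptors Optn, Calcoco1 and Nbr1, the conjugation genes Atg12, Atg4a, Atg5 and Atg10, the ATG8 family genes Gabarapl1 and Map1lc3b, the folliculin partner Fnip1, and Tfeb and Mitf. The genes that fell were Uvrag and Atg16l2. Calls were made where limma's adjusted p, over all 13042 tested genes, did not exceed 0.05; of these genes 18.8% were called higher and 20.3% lower. Among the 7771 tested genes whose mean over the 6 libraries was at or above that of the lowest tested member, 28.2% were higher and 14.2% lower. The members' shares were 40.5% higher and 5.41% lower. Their median log2 change was 0.28, beside -0.04 for all tested genes. The median of all genes was 0.06 among those with a mean of 1 FPKM or more, and 0.10 in the filtered table. With quantile normalization the medians were 0.18 for members and 0.05 for all genes. The 3 libraries at 7 days lay wholly above the 3 at 3 days for 22 members, and wholly below for 4 (26.8% and 28.6% of all tested genes). These shares were not taken among genes at the members' level, where the called shares differed. Fold changes are ratios of mean FPKM (fragments relative to transcript length and library size), and log2 changes are fitted differences of log2(FPKM + 1), 7 days minus 3 days, with their SE; they understate the change of low genes. Leaving out 1 library at a time gave 10 to 16 members higher, with the 10 without 3-day replicate 3. The same fits called 1572 to 2207 of all 13042 tested genes higher (1861 without 3-day replicate 3), against 2453 with all libraries. Neither Uvrag nor Atg16l2 was called without any one of the 7-day libraries. The lower count was then 0 without 7-day replicate 1 or 3, and 1 without 7-day replicate 2, a different gene (Atg9a). It was also 1 without 3-day replicate 3 (Atg16l2) and with quantile normalization (Uvrag).

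**Figure D1:**
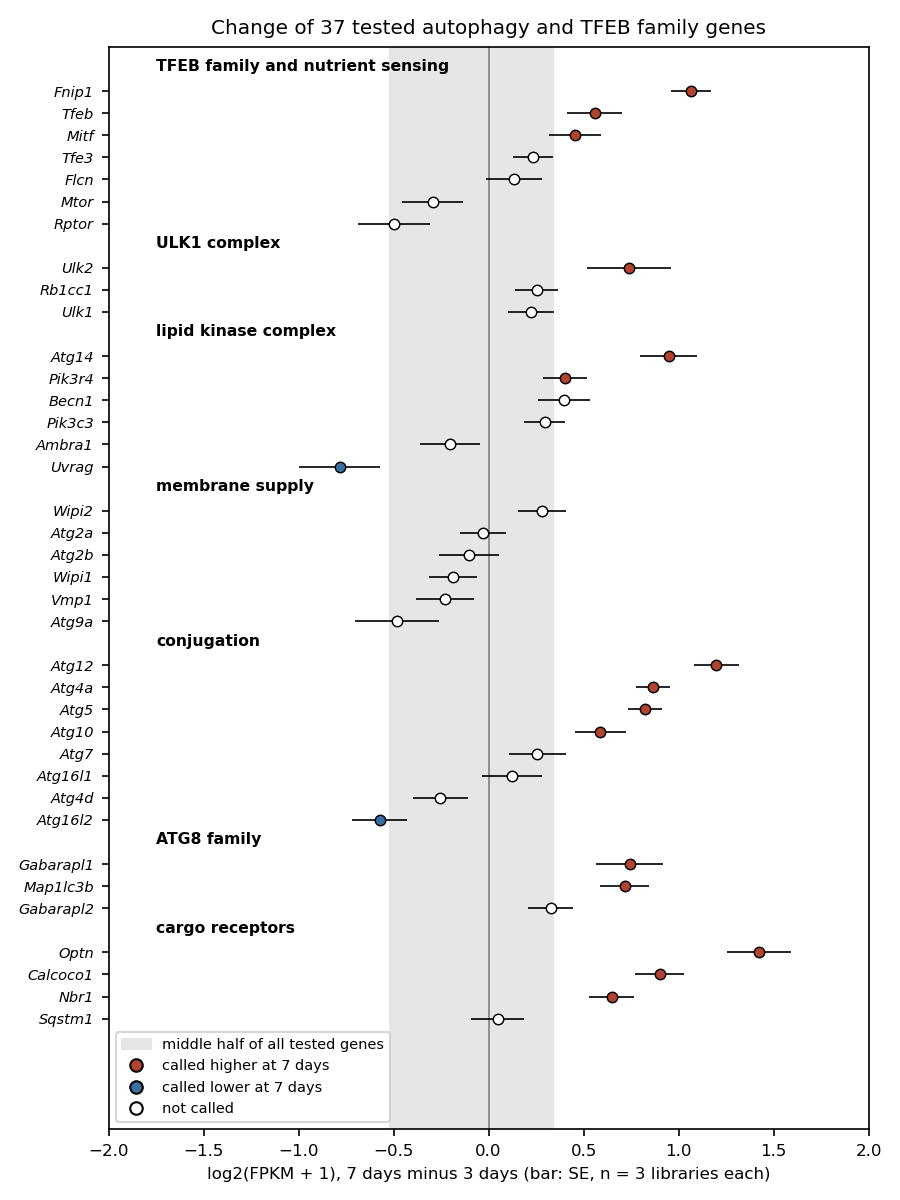
Each point is the fitted change of log2(FPKM + 1), 7 days minus 3 days, of 1 tested member, with a bar for its SE (3 libraries at each time), grouped by role; the shaded band spans the interquartile range of all 13042 tested genes. Called members reach from -0.78 (Uvrag) to 1.42 (Optn), and none of the 6 membrane supply genes is called.

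Markers of other cells moved between the same libraries. The 7 tested macrophage markers summed to 1373 to 1410.3 FPKM at 7 days, against 1303 to 1490.2 FPKM at 3 days, and none was at 0 in any library; 3 of the 7 were higher and 2 lower. Of the usual macrophage markers, Cd68 and Adgre1 had no row under their symbols. The rows of Lyz2 and of Emr1, the older symbol of Adgre1, were set aside. The 11 neuronal markers summed to 70.8 to 83.6 FPKM at 7 days, against 229.6 to 528 FPKM at 3 days, and the 9 oligodendrocyte markers to 143 to 170.3 FPKM at 7 days, against 332 to 679 FPKM at 3 days. Astrocyte markers, 9 in number, gave 112 to 137 FPKM at 7 days, against 225 to 617 FPKM at 3 days. Inflammatory monocyte markers, 7 in number, gave 186 to 240.2 FPKM at 7 days, against 476 to 550.0 FPKM at 3 days, and for each of these types the times did not overlap. Neutrophil markers, of cells that LysM-Cre also tags, summed to 31.4 to 49.1 FPKM at 7 days, against 49.4 to 54.1 FPKM at 3 days over 7 markers, of which 2 were lower and 1 was higher. Endothelial sums were 26.8 to 31.6 FPKM at 7 days, against 43.5 to 70.7 FPKM at 3 days over 8 markers, of which 6 were lower and 1 was higher. Erythroid sums were 15.9 to 22.4 FPKM at 7 days, against 164 to 213 FPKM at 3 days over 5 markers, of which 4 were lower and 0 were higher. By the limma test, 11 of 11 neuronal, 9 of 9 oligodendrocyte, 7 of 9 astrocyte and 5 of 7 monocyte markers were lower. No neuronal, oligodendrocyte or astrocyte marker was at 0 in any library, although such cells should carry no tag. The 6 tested microglia markers that are on no pathway list went the other way, with sums of 229 to 248 FPKM at 7 days, against 115 to 135 FPKM at 3 days, and 5 of the 6 were higher. The exception was Sall1, with means of 0.167 FPKM at 7 days and 0.845 FPKM at 3 days, which did not pass (limma adjusted p = 0.0835). Cx3cr1 changed most, with means of 72.8 FPKM at 7 days and 17.4 FPKM at 3 days. If the tag came from the donor cells, as the name of the chimeras reads, resident microglia of the host should carry none. Which cells these markers came from was not tested. B cell sums were 13.1 to 17.9 FPKM at 7 days, against 7.81 to 9.44 FPKM at 3 days over 3 markers, of which 2 were higher and 1 was lower. Schwann cell sums were 25.1 to 30.4 FPKM at 7 days, against 31.7 to 51.7 FPKM at 3 days over 6 markers, of which 3 were lower and 1 was higher. Sums of T and NK cell markers and of fibroblast and pericyte markers overlapped between the times. The 3-day replicate 2 had the highest neuronal, oligodendrocyte and astrocyte sums. Without it, 12 members were higher and 2 were lower. The part of these cells in a member's change was not tested, and in bulk libraries fewer cells of a type cannot be told apart from less RNA per cell.

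**Figure D2:**
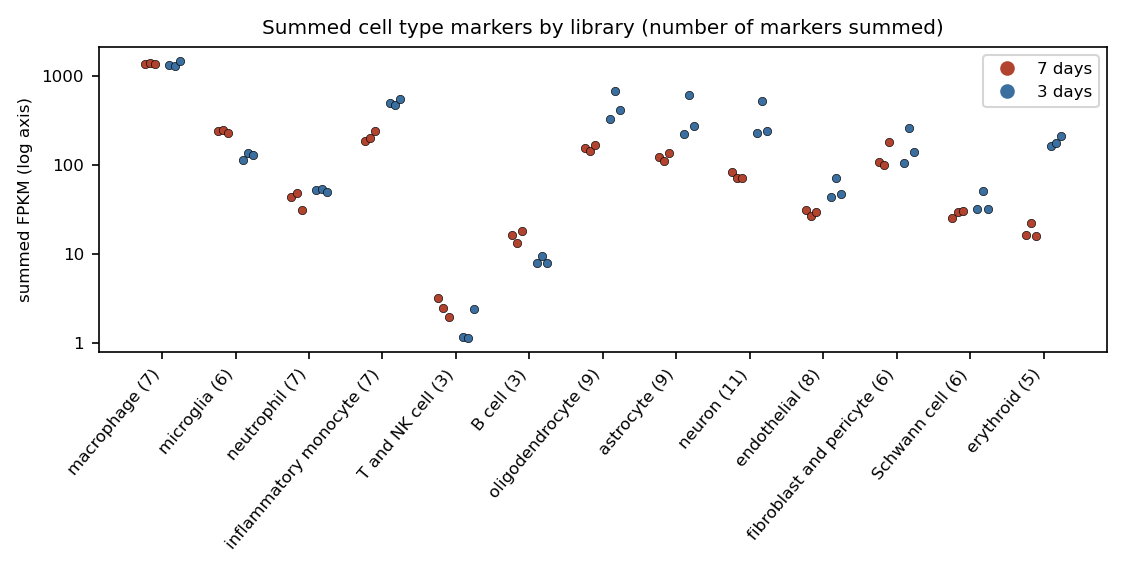
Each point is the summed FPKM (log axis) of the tested markers of 1 cell type in 1 library, with the number of markers summed in brackets, 7 days left of 3 days. Macrophage sums lie close together at both times. Neuronal, oligodendrocyte, astrocyte, monocyte, neutrophil, endothelial, Schwann cell and erythroid sums are lower at 7 days, and microglia and B cell sums are higher.

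Exons of 14 of the 41 members with a row overlap those of another gene in the GENCODE M21 annotation, most of them on the opposite strand. Among called members these were Atg14, Uvrag, Atg16l2, Map1lc3b, Gabarapl1 and Optn. Whether the authors counted by strand is not stated, so reads of the members and their neighbours may not have been told apart, and those values are uncertain. The row of Optn spans 24.9% of its annotated gene, that of Atg16l2 32.7%, of Atg2b 34.9% and of Tfeb 37.9%; among the other pathway genes, the row of Sesn1 spans 21.3% and that of Vps39 18.9%. By the authors' deposited q-values, 15 of the 17 called members were at 0.05 or less, the exceptions being Atg14 and Atg16l2. Of all tested genes limma called 5098, and 4120 of these were at 0.05 or less by the authors' q-values. Becn1 was at 0.05 or less by the authors alone. Those q-values called 17.8% of all tested genes higher and 20.7% lower.

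Of the 7 genes of the TFEB family and its nutrient sensors, 3 were higher, 0 were lower and 4 did not pass. Tfeb, which directs lysosome and autophagy genes, had 11.8, 13.6 and 16.00 FPKM in the 7-day libraries, against 9.94, 8.99 and 8.05 FPKM in the 3-day libraries. It rose 1.53-fold (log2 change 0.56 ± 0.15, limma adjusted p = 0.0210; mm10 chromosome 17, 47767459 to 47788460). The times did not overlap, with 7-day replicate 3 the highest; the call was lost without 7-day replicate 2 or 3 or 3-day replicate 2 or 3 (limma adjusted p = 0.0503 to 0.0710, beside 0.0178 to 0.0710 over all alternatives). Mitf, the relative best known from pigment cells and osteoclasts, gave 26.1, 24.6 and 26.4 FPKM at 7 days, against 21.7, 15.2 and 19.1 FPKM at 3 days. It rose 1.38-fold (log2 change 0.45 ± 0.14, limma adjusted p = 0.0362; chromosome 6, 97807004 to 98021646). Its call was lost under 8 of 14 alternatives, which were quantile normalization, median centring, a constant prior variance and the omission of any 1 library other than 3-day replicate 1 (limma adjusted p = 0.0529 to 0.110). Tfe3, the third relative, measured 23.97, 23.6 and 21.7 FPKM at 7 days, against 18.7, 18.4 and 21.6 FPKM at 3 days. The lowest 7-day library lay just above the highest 3-day one, and the change did not pass the test (log2 change 0.23 ± 0.11, limma adjusted p = 0.116). The authors' filtered table leaves out Tfeb, Tfe3 and Atg13.

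Fnip1 encodes a partner of folliculin, and the pair governs the Rag GTPases that bring TFEB to mTORC1. It had 74.7, 72.2 and 69.6 FPKM in the 7-day libraries, against 38.4, 30.8 and 33.1 FPKM in the 3-day libraries. The 7-day values lay close together and far above those at 3 days. Fnip1 rose 2.12-fold, with the highest level of this group at both times (mean 72.2 ± 2.55 FPKM at 7 days, against 34.1 ± 3.91 FPKM at 3 days, SD of n = 3; log2 change 1.07 ± 0.11, limma adjusted p = 6.89e-04; chromosome 11, 54438149 to 54519159), and kept its call under all 14 alternatives. Flcn, folliculin itself, measured 19.9, 20.8 and 24.6 FPKM at 7 days, against 23.6, 16.8 and 19.2 FPKM at 3 days, and the times overlapped (log2 change 0.13 ± 0.15, limma adjusted p = 0.486). Mtor, the kinase, had 10.03, 8.71 and 12.3 FPKM at 7 days, against 14.9, 12.1 and 11.6 FPKM at 3 days (log2 change -0.30 ± 0.16, limma adjusted p = 0.170). Rptor, the mTORC1 subunit that recruits substrates, had 4.60, 7.39 and 7.83 FPKM at 7 days, against 9.61, 8.91 and 10.1 FPKM at 3 days (log2 change -0.50 ± 0.19, limma adjusted p = 0.0747). Every Rptor value at 7 days lay below every value at 3 days, without passing the test, and its row spans only 1.63% of the annotated gene.

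TFEB and its relatives bind the E-box core CACGTG, and the stretches before the RefSeq start of each member that holds it are given here to show which members carry those letters. RefSeq promoter windows (GRCm38.p6, 250 bases before to 50 bases after a start) were found for 38 of the 44 members, in 48 windows. CACGTG, which reads the same on both strands, was in 5 of these windows (10.4%), in 7.15% of all 32851 windows and in 9.59% of the 11690 windows of tested genes. The longer TCACGTGA, also the same on both strands and containing CACGTG, was in 1 member window, that of Atg3 (2.08% of member windows, 0.974% of all windows and 1.74% of windows of tested genes). Of the 14 members called higher that had a window, 3 held CACGTG: Fnip1, Atg5 and Atg14. Atg7 held it and was not called, and Atg3 held it in 2 places and was not tested. These are counts of genes, unlike the shares of windows above. The share among all genes called higher was not taken. Each line gives 260 bases, 250 before the start and 10 after it, with CACGTG in capitals.
Fnip1, chr11:54437929-54438188, plus strand: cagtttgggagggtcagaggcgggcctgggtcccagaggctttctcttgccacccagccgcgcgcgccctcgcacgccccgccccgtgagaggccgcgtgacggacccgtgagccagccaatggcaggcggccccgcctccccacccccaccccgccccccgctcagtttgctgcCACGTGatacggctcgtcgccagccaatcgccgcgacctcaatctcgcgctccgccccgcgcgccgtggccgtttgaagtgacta
Atg5, chr10:44268089-44268348, plus strand: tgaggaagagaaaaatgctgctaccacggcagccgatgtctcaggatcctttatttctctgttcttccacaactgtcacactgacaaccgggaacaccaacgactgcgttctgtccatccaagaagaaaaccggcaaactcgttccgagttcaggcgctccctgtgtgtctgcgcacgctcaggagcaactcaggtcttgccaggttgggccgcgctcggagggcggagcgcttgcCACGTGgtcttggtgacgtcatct
Atg14, chr14:47568425-47568684, minus strand: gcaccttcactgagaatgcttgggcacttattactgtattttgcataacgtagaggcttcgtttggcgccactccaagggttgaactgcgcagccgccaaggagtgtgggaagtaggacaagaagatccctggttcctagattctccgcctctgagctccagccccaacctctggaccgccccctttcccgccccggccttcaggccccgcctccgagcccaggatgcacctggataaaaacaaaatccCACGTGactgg
Atg7, chr6:114670846-114671105, plus strand: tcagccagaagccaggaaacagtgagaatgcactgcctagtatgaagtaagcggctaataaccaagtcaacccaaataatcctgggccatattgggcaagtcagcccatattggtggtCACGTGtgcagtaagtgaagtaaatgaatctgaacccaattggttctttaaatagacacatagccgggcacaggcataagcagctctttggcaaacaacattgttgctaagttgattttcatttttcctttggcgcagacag
Atg3, chr16:45158579-45158838, plus strand: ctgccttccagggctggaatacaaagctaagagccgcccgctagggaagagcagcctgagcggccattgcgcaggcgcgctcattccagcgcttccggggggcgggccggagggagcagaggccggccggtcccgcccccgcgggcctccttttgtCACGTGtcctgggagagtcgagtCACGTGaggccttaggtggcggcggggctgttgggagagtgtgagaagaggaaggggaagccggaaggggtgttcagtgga
The match began 75 bases before the start in Fnip1, 14 in Atg5 and 1 in Atg14, and 94 and 71 bases before it in Atg3. In Atg7 it began 132 bases before the RefSeq start, which lies inside the gene, since the authors' row begins at 114643116 on chromosome 6; the stretch shown is not that before the start of the row. The RefSeq start of Atg14 lies inside the longer GENCODE gene as well, but next to the start of the authors' row. A match is a description of letters, not of a bound site.

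The ULK1 complex, the kinase that starts autophagosome formation, had 1 of 3 tested members higher and 0 lower. Ulk2, the relative of ULK1, had 16.5, 20.8 and 19.8 FPKM in the 7-day libraries, against 14.9, 7.68 and 11.3 FPKM in the 3-day libraries. It rose 1.68-fold (log2 change 0.74 ± 0.22, limma adjusted p = 0.0337; chromosome 11, 61791260 to 61854416). Its lowest library was 3-day replicate 2, and the call was lost with quantile normalization and without any 1 library other than 3-day replicate 1 (limma adjusted p = 0.0530 to 0.106). Ulk1, the kinase that AMPK activates and mTORC1 restrains, measured 14.4, 13.2 and 11.3 FPKM at 7 days, against 10.7, 11.1 and 10.9 FPKM at 3 days. The values at 3 days lay close together and below all those at 7 days, and the change did not pass (log2 change 0.22 ± 0.12, limma adjusted p = 0.174). Rb1cc1, the scaffold FIP200, had 43.8, 34.3 and 37.1 FPKM at 7 days, against 32.96, 32.4 and 30.2 FPKM at 3 days (log2 change 0.25 ± 0.11, limma adjusted p = 0.111). Atg13, the adaptor subunit, was set aside, because its libraries (8.42, 7.01 and 7.48 FPKM at 7 days, 7.64, 7.14 and 7.21 FPKM at 3 days) do not give the means of the authors' deposited table (23.4 and 21.2 FPKM). Atg101, which stabilises ATG13, had no row under that symbol.

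In the Beclin 1 lipid kinase complexes, which make the phosphoinositide that marks the growing membrane, 2 of 6 members were higher and 1 was lower. The member that rose and the member that fell furthest are the alternative partners that direct the complex: Atg14 to the forming autophagosome, Uvrag to endosomes. Atg14 had 25.5, 30.9 and 31.8 FPKM in the 7-day libraries, against 15.1, 12.2 and 17.1 FPKM in the 3-day libraries. It rose 1.98-fold (log2 change 0.95 ± 0.15, limma adjusted p = 0.00330; chromosome 14, 47540809 to 47568429), kept its call under all 14 alternatives, and had a q-value of 0.0685 in the authors' deposited table. Uvrag had 38.9, 43.03 and 35.5 FPKM in the 7-day libraries, against 94.8, 50.8 and 64.97 FPKM in the 3-day libraries. The 7-day libraries lay close together and below the 3-day ones, which were spread widely, with 3-day replicate 1 the highest. Uvrag fell to 39.1 ± 3.77 FPKM at 7 days, against 70.2 ± 22.5 FPKM at 3 days (SD, n = 3; log2 change -0.78 ± 0.21, limma adjusted p = 0.0246; chromosome 7, 98885796 to 99141146). That call was lost without any 7-day library or without 3-day replicate 3 (limma adjusted p = 0.0534 to 0.0809). The difference between the changes of Atg14 and Uvrag was not tested.

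Pik3r4, the regulatory subunit VPS15, had 11.7, 10.99 and 9.83 FPKM at 7 days, against 7.78, 7.996 and 8.07 FPKM at 3 days. It rose 1.36-fold (log2 change 0.40 ± 0.12, limma adjusted p = 0.0308; chromosome 9, 105642972 to 105687651), and lost its call in a fit blocked by replicate number and without any 1 library other than 7-day replicate 3 (limma adjusted p = 0.0503 to 0.106). Becn1, Beclin 1 itself, was among the more abundant members, with 63.6, 69.5 and 62.9 FPKM at 7 days, against 58.2, 40.9 and 50.5 FPKM at 3 days. The times did not overlap, but the change stayed just outside the threshold (log2 change 0.40 ± 0.14, limma adjusted p = 0.0537), inside it without 3-day replicate 1 (limma adjusted p = 0.0206, beside 0.0206 to 0.401 over all alternatives) and at a q-value of 0.0401 in the authors' deposited table. Pik3c3, the lipid kinase VPS34, measured 33.5, 30.97 and 29.01 FPKM at 7 days, against 27.8, 23.2 and 24.7 FPKM at 3 days (log2 change 0.30 ± 0.11, limma adjusted p = 0.0644). It passed without 3-day replicate 1 (limma adjusted p = 0.0367, beside 0.0367 to 0.368 over all alternatives). Ambra1, a Beclin 1 regulator, had 13.6, 10.4 and 13.4 FPKM at 7 days, against 16.3, 11.9 and 15.5 FPKM at 3 days, with the times overlapping (log2 change -0.20 ± 0.16, limma adjusted p = 0.325).

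None of the 6 genes that supply or mark the membrane passed the test, with a median log2 change of -0.15. Atg9a, the scramblase whose vesicles seed the membrane, had 3.74, 7.51 and 4.82 FPKM in the 7-day libraries, against 8.29, 6.94 and 7.68 FPKM in the 3-day libraries. One 7-day library, replicate 2, lay among the 3-day values while the other two lay below them (log2 change -0.48 ± 0.22, limma adjusted p = 0.119), and without it the change passed (limma adjusted p = 0.0307, beside 0.0307 to 0.314 over all alternatives). Atg2a and Atg2b, which move lipid into the membrane, differed little between the times. Atg2a had 5.75, 5.82 and 5.64 FPKM at 7 days, against 5.68, 6.05 and 5.91 FPKM at 3 days (log2 change -0.03 ± 0.12, limma adjusted p = 0.855), and Atg2b had 6.28, 4.61 and 5.80 FPKM at 7 days, against 6.53, 5.26 and 6.29 FPKM at 3 days (log2 change -0.10 ± 0.16, limma adjusted p = 0.616); both changes turned positive with quantile normalization, and that of Atg2b also without 7-day replicate 2. Wipi2, a reader of the lipid mark that recruits ATG16L1, measured 13.2, 15.1 and 13.6 FPKM at 7 days, against 10.5, 13.1 and 10.5 FPKM at 3 days (log2 change 0.28 ± 0.13, limma adjusted p = 0.112). It passed without 3-day replicate 2 (limma adjusted p = 0.0434, beside 0.0434 to 0.275 over all alternatives). Its relative Wipi1 had 6.33, 6.08 and 6.14 FPKM at 7 days, against 6.87, 8.03 and 6.71 FPKM at 3 days (log2 change -0.19 ± 0.13, limma adjusted p = 0.262), with all 7-day values below those at 3 days. Vmp1, a membrane scramblase of the endoplasmic reticulum, measured 28.7, 34.4 and 34.1 FPKM at 7 days, against 31.2, 45.7 and 38.5 FPKM at 3 days (log2 change -0.23 ± 0.15, limma adjusted p = 0.255); its exons overlap those of the microRNA gene Mir21a on the same strand.

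The conjugation genes held 4 of the 15 higher members and 1 of the 2 lower ones, among 8 tested. Atg12, a ubiquitin-like protein joined to ATG5, had 36.1, 33.98 and 37.98 FPKM in the 7-day libraries, against 15.9, 13.03 and 16.6 FPKM in the 3-day libraries. It rose 2.37-fold (log2 change 1.20 ± 0.12, limma adjusted p = 6.81e-04), and the times lay far apart. Atg5, which carries ATG12, had 49.3, 54.6 and 50.6 FPKM at 7 days, against 28.9, 27.4 and 29.7 FPKM at 3 days. It rose 1.80-fold, with both times tightly grouped (mean 51.5 ± 2.78 FPKM at 7 days, against 28.7 ± 1.19 FPKM at 3 days, SD of n = 3; log2 change 0.82 ± 0.09, limma adjusted p = 9.59e-04; chromosome 10, 44268353 to 44364291). Atg10, the enzyme that joins them, had 9.79, 12.6 and 10.5 FPKM at 7 days, against 6.83, 6.55 and 7.35 FPKM at 3 days. It rose 1.58-fold (log2 change 0.59 ± 0.13, limma adjusted p = 0.0126; chromosome 13, 90935174 to 91223979). Atg12, Atg5 and Atg10 were called under all 14 alternatives. Atg7, the activating enzyme that serves both branches of the cascade, measured 23.7, 22.9 and 20.4 FPKM at 7 days, against 21.6, 14.9 and 19.6 FPKM at 3 days. Its times overlapped, because 3-day replicate 1 lay within the 7-day range, and it did not pass (log2 change 0.26 ± 0.15, limma adjusted p = 0.202).

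The ATG12-ATG5 pair works with ATG16L1, which places it on the membrane. Atg16l1 had 19.6, 13.4 and 19.6 FPKM at 7 days, against 15.1, 16.1 and 16.1 FPKM at 3 days, with 7-day replicate 2 below all 3-day libraries and the other two above them (log2 change 0.12 ± 0.16, limma adjusted p = 0.549). Atg16l2, its less well known relative, had 4.29, 4.16 and 4.34 FPKM at 7 days, against 7.87, 6.86 and 5.88 FPKM at 3 days. It fell to 4.27 ± 0.0910 FPKM at 7 days, against 6.87 ± 0.994 FPKM at 3 days (SD, n = 3; log2 change -0.57 ± 0.14, limma adjusted p = 0.0186; chromosome 7, 101289263 to 101302072). The call was lost without any 7-day library and with quantile normalization (limma adjusted p = 0.0517 to 0.124), and the authors' deposited table gives a q-value of 0.109.

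The ATG4 proteases trim LC3 and GABARAP proteins before conjugation and free them afterwards. Atg4a had 37.4, 38.2 and 34.8 FPKM in the 7-day libraries, against 19.9, 19.01 and 20.4 FPKM in the 3-day libraries. It rose 1.86-fold (mean 36.8 ± 1.77 FPKM at 7 days, against 19.8 ± 0.701 FPKM at 3 days, SD of n = 3; log2 change 0.86 ± 0.09, limma adjusted p = 8.18e-04; chromosome X, 140956905 to 141158872) and was called under all 14 alternatives. Atg4d measured 4.69, 6.16 and 4.70 FPKM at 7 days, against 6.07, 6.43 and 6.50 FPKM at 3 days and did not pass (log2 change -0.25 ± 0.15, limma adjusted p = 0.195). Atg4b, the most active protease of the family, was set aside. Its libraries gave 20.3, 22.5 and 23.9 FPKM at 7 days, against 24.3, 25.8 and 25.9 FPKM at 3 days, but the authors' deposited means are 8.40 FPKM at 7 days and 25.8 FPKM at 3 days. Atg4c was set aside for a smaller gap of the same kind and had 31.2, 31.7 and 29.4 FPKM at 7 days, against 30.8, 26.7 and 27.00 FPKM at 3 days. Atg3, which passes LC3 to the lipid, was set aside likewise, with 49.1, 52.03 and 45.9 FPKM at 7 days, against 49.8, 40.3 and 43.1 FPKM at 3 days. When rows with such gaps were kept, none of Atg13, Atg3, Atg4b and Atg4c passed (limma adjusted p = 0.181 to 0.770).

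**Figure D3:**
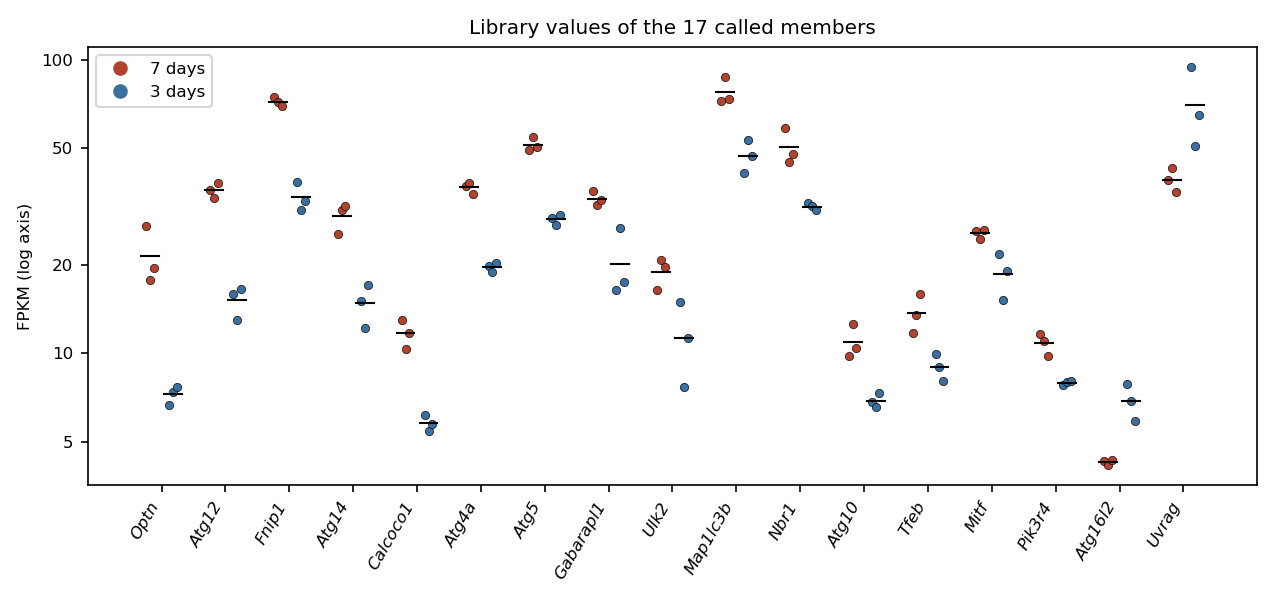
Each point is the FPKM (log axis) of 1 library for the 17 called members, 7 days left of 3 days, with a line at the mean of 3 libraries, ordered by log2 change. The 15 members on the left have all 7-day libraries above all 3-day ones, and Atg16l2 and Uvrag on the right have them below.

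The ATG8 family proteins are attached to the autophagosome membrane and bind cargo receptors. Of the 5 genes, Map1lc3a and Gabarap had no row under their symbols, 2 of the other 3 were higher and 0 were lower. Map1lc3b, the LC3 gene most used as a marker of autophagosomes, had 72.4, 87.9 and 73.4 FPKM in the 7-day libraries, against 41.1, 53.3 and 46.99 FPKM in the 3-day libraries. It rose 1.65-fold (mean 77.9 ± 8.67 FPKM at 7 days, against 47.1 ± 6.11 FPKM at 3 days, SD of n = 3; log2 change 0.72 ± 0.13, limma adjusted p = 0.00544; chromosome 8, 121590447 to 121598047), and was called under all 14 alternatives. Gabarapl1 had 35.8, 31.96 and 33.4 FPKM at 7 days, against 16.4, 26.7 and 17.5 FPKM at 3 days. It rose 1.67-fold (log2 change 0.74 ± 0.18, limma adjusted p = 0.0159; chromosome 6, 129532940 to 129543611). Among its 3-day libraries, replicate 2, which had the highest neuronal marker sum, stood above the others. Map1lc3b was also highest at 3 days in that library, and Gabarapl2 was not. A link to the neuronal sum was not tested. Without that library Gabarapl1 had a log2 change of 0.95 and a limma adjusted p of 0.00350. Its call was lost with quantile normalization, without 7-day replicate 1 and without 3-day replicate 3 (limma adjusted p = 0.0507 to 0.0569, beside 0.00350 to 0.0569 over all alternatives). Gabarapl2, also known as GATE-16, had 23.9, 23.6 and 19.8 FPKM at 7 days, against 16.03, 17.7 and 19.3 FPKM at 3 days. The times did not overlap, and the change did not pass in any alternative (log2 change 0.33 ± 0.12, limma adjusted p = 0.0644; 0.0576 to 0.182 over the alternatives).

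Cargo receptors link what is to be degraded to the ATG8 proteins, and 3 of the 4 were higher at 7 days, with a median log2 change of 0.77. Optn, optineurin, a receptor for damaged mitochondria and bacteria, had the largest change of all members. It measured 27.2, 17.7 and 19.5 FPKM in the 7-day libraries, against 6.69, 7.39 and 7.69 FPKM in the 3-day libraries. Optn rose 2.96-fold, with 7-day replicate 1 the highest (mean 21.5 ± 5.02 FPKM at 7 days, against 7.26 ± 0.513 FPKM at 3 days, SD of n = 3; log2 change 1.42 ± 0.17, limma adjusted p = 0.00118; chromosome 2, 5020472 to 5031450). Calcoco1, a receptor for the endoplasmic reticulum and Golgi, had 13.03, 10.4 and 11.7 FPKM at 7 days, against 6.18, 5.44 and 5.74 FPKM at 3 days. It rose 2.02-fold (log2 change 0.90 ± 0.13, limma adjusted p = 0.00249; chromosome 15, 102706527 to 102722108). Nbr1, which gathers ubiquitinated proteins with p62, measured 58.9, 44.9 and 47.7 FPKM at 7 days, against 32.5, 31.7 and 30.8 FPKM at 3 days. It rose 1.59-fold (log2 change 0.65 ± 0.12, limma adjusted p = 0.00568; chromosome 11, 101552785 to 101582004), and all 3 receptors were called under all 14 alternatives.

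Sqstm1, the p62 receptor whose protein is itself degraded by autophagy, was by far the most abundant member and did not pass. It had 430.2, 386 and 378 FPKM in the 7-day libraries, against 455, 349 and 358 FPKM in the 3-day libraries, with 3-day replicate 1 above all 7-day libraries. Its log2 change was 0.05 ± 0.14 (limma adjusted p = 0.805), and the sign turned under quantile normalization and without 7-day replicate 1, 3-day replicate 2 or 3-day replicate 3. Over all alternatives it lay between -0.15 and 0.17.

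**Figure D4:**
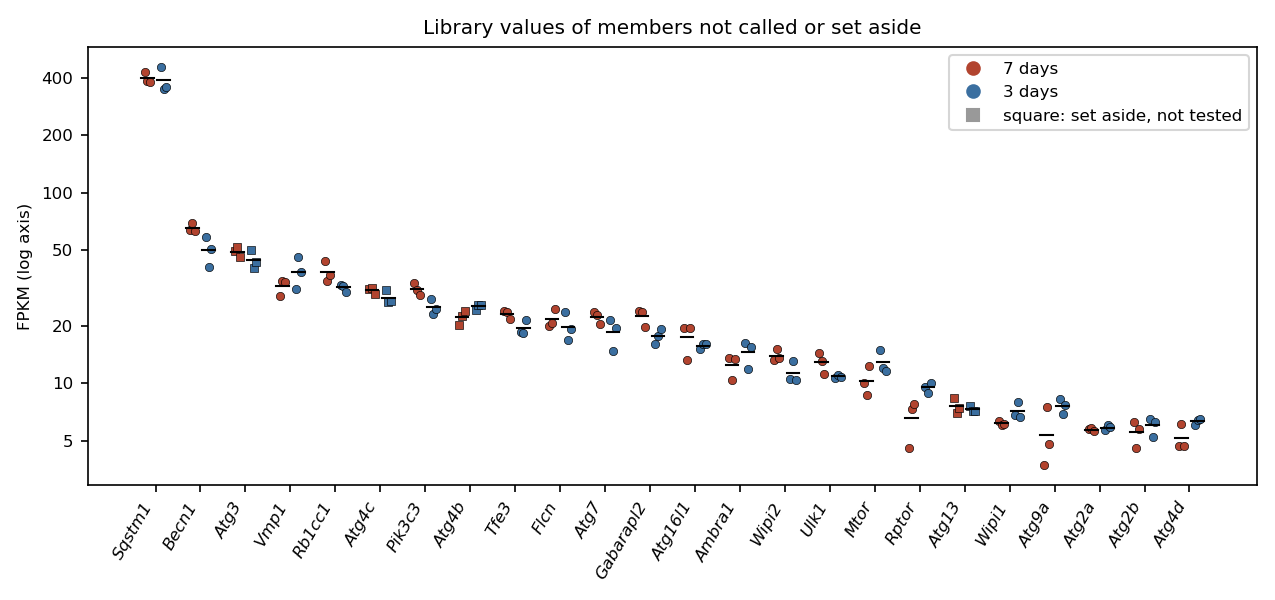
Each point is the FPKM (log axis) of 1 library for the members that were not called (circles) or were set aside (squares), 7 days left of 3 days, with a line at the mean of 3 libraries, ordered by mean level. Sqstm1 lies far above the rest at both times, and the lowest means are those of Atg2a, Atg2b and Atg4d.

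Ratios between related members within a library do not depend on how libraries were scaled to each other, and are given as descriptions without a test. The ratio of Atg16l1 to Atg16l2 was 4.56, 3.21 and 4.51 in the 7-day libraries, against 1.92, 2.34 and 2.74 in the 3-day libraries. It was higher in every 7-day library. That of Wipi1 to Wipi2 was 0.478, 0.403 and 0.452 in the 7-day libraries, against 0.653, 0.615 and 0.640 in the 3-day libraries, and so lower in every 7-day library. Atg4b to Atg4a, with Atg4b taken from its library values, gave 0.544, 0.590 and 0.688 in the 7-day libraries, against 1.22, 1.36 and 1.27 in the 3-day libraries. By these values Atg4b was the higher of the pair in each 3-day library and the lower in each 7-day library. The row of Atg4b was set aside, because its library values do not give the authors' means, so this ratio is uncertain. The ratios overlapped between the times for Ulk1 to Ulk2, Atg2a to Atg2b, Tfe3 to Tfeb, Mitf to Tfe3 and Gabarapl2 to Gabarapl1. In the TFEB family, the ratio of Tfe3 to Tfeb was 2.04, 1.74 and 1.36 in the 7-day libraries, against 1.88, 2.05 and 2.68 in the 3-day libraries.

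In order of mean FPKM at 7 days, Sqstm1 was followed by Map1lc3b, Fnip1, Becn1, Atg5 and Nbr1. Map1lc3b and Fnip1 (77.9 ± 8.67 and 72.2 ± 2.55 FPKM, SD, n = 3) were within their spread of each other, as were Atg5 and Nbr1 (51.5 ± 2.78 and 50.5 ± 7.40 FPKM). At 3 days the order after Sqstm1 was Uvrag, Becn1 and Map1lc3b, with 70.2 ± 22.5, 49.9 ± 8.66 and 47.1 ± 6.11 FPKM, again with overlapping spreads. The lowest member was Atg16l2 at 7 days, with 4.27 ± 0.0910 FPKM, and Calcoco1 at 3 days, with 5.79 ± 0.372 FPKM, the second within its spread of Atg2a and Atg2b (5.88 ± 0.190 and 6.03 ± 0.679 FPKM).

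Other genes of the pathway, on 5 lists, were 76 in number among those tested. Of these 37 were higher and 4 were lower (48.7% and 5.26%), with a median log2 change of 0.40. The shares were 18.8% and 20.3% of all tested genes. Among genes at or above the mean of the lowest tested member they were 28.2% and 14.2%. With 1 library left out, 26 to 32 of the 76 were higher and 2 to 4 lower (2 without 7-day replicate 1 or 2). Quantile normalization gave 27 higher. Among 26 genes of mTORC1 and AMPK control, 8 were higher and 4 were lower (30.8% and 15.4%, near the 28.2% and 14.2% above). The higher count was 4 without 7-day replicate 2 or 3-day replicate 3, and 5 without 7-day replicate 1 or 3, without 3-day replicate 2, with quantile normalization, with a constant prior variance and in the filtered table. The lower count was 2 without 7-day replicate 1 or 2 and with quantile normalization. Sesn1, a stress-induced restraint on mTORC1, rose 2.79-fold (mean 50.1 ± 3.18 FPKM at 7 days, against 17.9 ± 2.65 FPKM at 3 days, SD of n = 3; log2 change 1.44 ± 0.13, limma adjusted p = 5.01e-04). Rragc, a Rag GTPase that folliculin governs, rose 1.70-fold (log2 change 0.76 ± 0.12, limma adjusted p = 0.00338). Prkaa2, a catalytic subunit of AMPK, had 0.630, 0.381 and 0.364 FPKM at 7 days, against 3.93, 5.24 and 4.67 FPKM at 3 days, in the libraries whose neuronal sums also differed. A link to those sums was not tested. Prkaa2 fell to 0.458 ± 0.149 FPKM at 7 days, against 4.61 ± 0.659 FPKM at 3 days (SD, n = 3; log2 change -1.94 ± 0.17, limma adjusted p = 5.10e-04). Ddit4, another restraint on mTORC1, fell to 0.899 ± 0.371 FPKM at 7 days, against 2.18 ± 0.569 FPKM at 3 days (SD, n = 3; log2 change -0.75 ± 0.22, limma adjusted p = 0.0333), and lost its call with quantile normalization, in a fit blocked by replicate number and without 7-day replicate 1 or 2 or 3-day replicate 1 or 2 (limma adjusted p = 0.0524 to 0.465).

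Other cargo receptors were higher in 6 of 11 (54.5%) and lower in 0. Ncoa4, which delivers ferritin to the lysosome, had 36.7, 37.9 and 35.9 FPKM in the 7-day libraries, against 10.5, 11.3 and 11.5 FPKM in the 3-day libraries. It rose 3.32-fold (log2 change 1.65 ± 0.09, limma adjusted p = 1.00e-04), the lowest adjusted p of any gene named here. Stbd1, linked to glycogen breakdown, rose 3.73-fold (log2 change 1.57 ± 0.19, limma adjusted p = 0.00120). The mitophagy receptor Bnip3l had 88.6, 92.1 and 83.9 FPKM at 7 days, against 41.1, 39.2 and 39.2 FPKM at 3 days and rose 2.21-fold (log2 change 1.13 ± 0.09, limma adjusted p = 3.06e-04). Tax1bp1, a relative of the CALCOCO receptors, rose (mean 339 ± 32.96 FPKM at 7 days, against 226 ± 30.9 FPKM at 3 days, SD of n = 3; log2 change 0.59 ± 0.14, limma adjusted p = 0.0146). It lost its call with quantile normalization and without 7-day replicate 1 (limma adjusted p = 0.0541 to 0.141).

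Among 10 other phagophore genes, 5 (50%) were higher (3 without 7-day replicate 2) and 0 were lower (1 with quantile normalization). The lysosomal membrane proteins Dram2 and Dram1, the second known as a p53 target, rose 2.21-fold and 2.08-fold (log2 change 1.11 ± 0.14, limma adjusted p = 0.00135 for Dram2; log2 change 0.98 ± 0.13, limma adjusted p = 0.00171 for Dram1). Trp53inp1, another p53 target, rose 1.81-fold (log2 change 0.80 ± 0.12, limma adjusted p = 0.00277), and Wdr45b, a relative of the WIPI genes, rose 1.48-fold (log2 change 0.52 ± 0.12, limma adjusted p = 0.0125), not called without 7-day replicate 2 (limma adjusted p = 0.0513). Of 12 genes for fusion of the autophagosome with the lysosome, 5 (41.7%) were higher and 0 were lower. The higher count was 1 without 7-day replicate 2 and with quantile normalization, 2 without 7-day replicate 1 or 3-day replicate 1, and 3 without 7-day replicate 3, 3-day replicate 2 or 3-day replicate 3 and with the replicate block. The largest changes were in Vps39, a subunit of the HOPS tether, and the SNARE genes Vamp8, Ykt6 and Vamp7, between 1.37-fold (Vamp7; log2 change 0.44 ± 0.11, limma adjusted p = 0.0205) and 1.68-fold (Vps39; log2 change 0.68 ± 0.20, limma adjusted p = 0.0313). Vamp8 rose 1.49-fold (log2 change 0.56 ± 0.15, limma adjusted p = 0.0246) and Ykt6 rose 1.44-fold (log2 change 0.51 ± 0.11, limma adjusted p = 0.0123). Each of these 4 lost its call under some alternative: Ykt6 with quantile normalization (limma adjusted p = 0.0604), Vamp7 with it and without 7-day replicate 1 or 2 (limma adjusted p = 0.0605 to 0.0986). Vamp8 lost it with quantile normalization and without any 1 library other than 7-day replicate 1 and 3-day replicate 3 (limma adjusted p = 0.0641 to 0.116), and Vps39 in a fit blocked by replicate number and without any 1 library other than 7-day replicate 3 (limma adjusted p = 0.0510 to 0.0974). Of 17 tested lysosomal genes known as TFEB targets, 13 (76.5%) were higher and 0 were lower, with a median log2 change of 0.81. Another 4 genes of that list were set aside and are not in these counts: Ctsb, Ctsd and Psap are listed at 0 in every 7-day library and at no less than 2779 FPKM in any 3-day library, and the libraries of Mcoln1 do not give the authors' means. Hexa, a subunit gene of a lysosomal hexosaminidase, had 1043, 1077 and 1108 FPKM at 7 days, against 293, 314 and 369.7 FPKM at 3 days (log2 change 1.73 ± 0.14, limma adjusted p = 3.43e-04). Scarb2, a membrane protein that carries glucocerebrosidase to the lysosome, had 354, 352 and 391 FPKM at 7 days, against 126, 122 and 141 FPKM at 3 days (log2 change 1.49 ± 0.11, limma adjusted p = 2.60e-04), and Naglu, an enzyme of heparan sulfate breakdown, had 82.1, 102 and 94.3 FPKM at 7 days, against 29.3, 38.3 and 38.9 FPKM at 3 days (log2 change 1.37 ± 0.14, limma adjusted p = 7.52e-04). Microglia markers were higher in the same libraries, and their part in these changes was not tested.

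**Figure D5:**
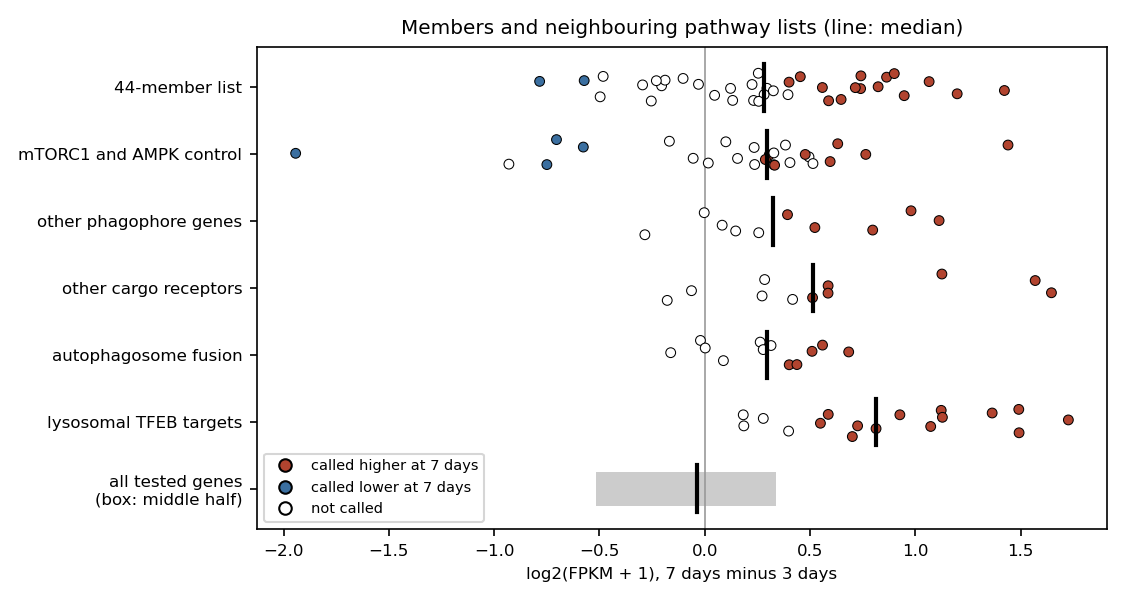
Each point is the fitted change of log2(FPKM + 1), 7 days minus 3 days, of 1 tested gene on the member list or on 1 of 5 neighbouring lists, with a line at the list's median; the bottom box spans the interquartile range of all tested genes. List medians lie between 0.28 (members) and 0.81 (lysosomal TFEB targets), beside -0.04 for all tested genes. Among genes with a mean of 1 FPKM or more that median was 0.06.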

How the data were processed

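Libraries were made from RiboTag precipitates with the ScriptSeq v2 kit (labels' protocols). The authors deposited FPKM values in 2 gene tables, 1 unfiltered and 1 filtered. Per the file headers, these also hold the authors' mean FPKM at each time, a log2 fold change, a test statistic (a score), a p-value and a q-value. The submitters' processing notes name TopHat2 2.0.12, Cufflinks 2.2, Cuffdiff 2.2.1 and mm10; their roles, the scaling between libraries, the use of strand and the filter are not stated.

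Of 13960 rows in the unfiltered table, 918 were set aside: 45 had a status other than OK, 838 had library values that miss the authors' mean by over 1%, 14 held a 0 beside 100 FPKM or more, and 32 shared a symbol, with some rows in more than 1 class. For the other 13042, log2(FPKM + 1) was fitted with limma 3.58.1 (R 4.3.3), with a prior variance that follows the mean. The contrast was 7 days minus 3 days, and two-sided p-values were adjusted by Benjamini-Hochberg across all of these genes. With 3 libraries a side, no exact permutation test can give a p under 0.1, so calls rest on variance pooled across genes. Depth is unknown, since FPKM does not give counts. The fit was tested on simulated data.

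Every member with a row has its values printed. Up to 4 called genes of each other list are named, those that changed most among genes whose larger mean was at least 1 FPKM; 1 gene that this rule names is not reported here. Marker sums and counts leave out any marker that is on a pathway list. The members, lists and rules were chosen with earlier results of these data known. The 14 alternatives were a pseudocount of 0.1, a filter at a mean of 1 FPKM, quantile normalization, median centring, the filtered table, a replicate block, keeping rows with missed means, a constant prior variance, and leaving out each library. Coordinates are as the table gives them, and the base at which its starts begin to count is not stated. Other steps used Python 3.11.15, numpy 2.4.6, pandas 2.3.3 and matplotlib 3.10.9.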

Additional observations from a re-analysis of the deposited data

How the results depend on the processing

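Over the 14 alternatives, 10 of the 17 called members were called in each one that tested them (Fnip1, Atg14, Atg5, Atg10, Atg12, Atg4a, Map1lc3b, Optn, Nbr1 and Calcoco1), and 7 lost their call in at least 1. No called member changed sign. Of 516 values of single members under alternatives, 477 stayed on the same side of the threshold, 35 lost a call and 4 gained one. Members higher numbered 12 with quantile normalization and 14 or 15 under the other 7 alternatives that keep all libraries, and 10 to 16 with 1 library left out. Members lower numbered 1 with quantile normalization and 0 to 2 with 1 library left out. Other pathway genes higher numbered 26 to 32 with 1 library left out, against 37 with all libraries, and those lower numbered 2 to 4. Fewer libraries leave fewer residual degrees of freedom. Members higher numbered 16 without 3-day replicate 1 and 10 without 3-day replicate 3. For the counts with 1 library left out, as for those with quantile normalization, the cause was not tested. With the replicate number as a block, 14 members were higher (Pik3r4 was not called) and 2 lower, and 2450 of all genes were higher and 2425 lower. Deviations of same-numbered libraries from their group means correlated across genes with r = 0.115, 0.0096 and 0.0105, and 7-day replicate 2 correlated best with 3-day replicate 3 (0.0417), so the numbers were not taken as pairs. Of all genes, 2453 were higher and 2645 lower, against 1572 and 1697 without 7-day replicate 2 and 2389 and 1433 with the filtered table. With quantile normalization 2317 of all genes were higher and 1809 lower. With 1 library left out, 1572 to 2207 of all genes were higher and 1697 to 2565 lower. The number of fragments behind each member is unknown, which limits what can be said of the members near 5 FPKM.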

Other observations

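By RefSeq synonyms, the row named 9430023L20Rik is Atg101, a subunit of the ULK1 complex. It had 16.3, 15.6 and 20.9 FPKM in the 7-day libraries, against 13.7, 13.6 and 12.5 FPKM in the 3-day libraries. The times did not overlap and the change did not pass (log2 change 0.37 ± 0.13, limma adjusted p = 0.0604). It was found by a look for absent members after their values were seen.

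Gabarap has no row of its own, but its RefSeq position (chromosome 11, 69991370 to 69994949) lies within the span given for the rows Ctdnep1 and Elp5 (69968029 to 69995277). Ctdnep1, a nuclear envelope phosphatase gene, had 559, 688 and 610.4 FPKM in the 7-day libraries, against 348, 469 and 542 FPKM in the 3-day libraries. Its mean was above that of every member at both times. Elp5, a subunit gene of the Elongator complex, had 11.1, 17.5 and 13.7 FPKM at 7 days, against 10.5, 9.79 and 12.2 FPKM at 3 days. The change of Ctdnep1 did not pass (log2 change 0.47 ± 0.19, limma adjusted p = 0.0829), except in the fit with the replicate block (limma adjusted p = 0.0485, beside 0.0485 to 0.293 over all alternatives). Whether fragments of Gabarap were counted in the row Ctdnep1 was not tested.

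In the authors' deposited table, Atg4b has a log2 fold change of 4.23 beside deposited means of 8.40 FPKM at 7 days and 25.8 FPKM at 3 days, so the sign of the change and the order of the means differ. The authors' deposited table gives Atg3 a log2 fold change of -2.59 beside means of 49.7 FPKM at 7 days and 50.5 FPKM at 3 days. Both rows were set aside here.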
